A study of Homo sapiens with 34 samples.

Results

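The transcription factor genes of the early somite FOXC1, FOXC2, TCF15, MEOX1, PAX3 and TBX18 were followed through 2 days of differentiation of human pluripotent stem cells toward endoderm and mesoderm. They were chosen by gene symbol, and the symbols matched 6 of the 37951 genes in the count tables. All 6 passed the filter on low counts that left 17895 genes for testing.

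The cells were ESI017, an established human embryonic stem cell line, wild type, in 17 conditions with 2 libraries each (34 libraries of poly(A) RNA). The control was held in the pluripotency medium mTeSR PLUS for 48 h. On day 1, cells received 1 of 4 primitive streak (PS) treatments and were collected at 24 h. DE(a) held 100 ng/ml activin and 2 µM CHIR, whereas anterior PS (APS) medium held 4 µM CHIR, bFGF at 20 ng/ml and activin at 30 ng/ml. Mid PS (MPS) medium had the activin and bFGF of APS with 6 µM CHIR and, in addition, BMP4 at 40 ng/ml, and posterior PS (PPS) medium was that of MPS without activin. On day 2, each of these populations was moved to 1 of 3 media and collected at 48 h. The endoderm medium DE(b) held 100 ng/ml activin and 250 nM LDN, a BMP receptor inhibitor. The paraxial mesoderm medium PM held 1 µM A8301, an activin and TGF-beta receptor inhibitor, with 20 ng/ml bFGF and 250 nM LDN. The methods list no CHIR for PM, but 1 legend lists 3 µM CHIR, and the main text of the study describes PM as strongly WNT-activating. The lateral mesoderm medium LM held 1 µM A8301, 30 ng/ml BMP4 and 4 µM IWP2, which blocks WNT secretion. The standard protocols are APS-PM for paraxial mesoderm, MPS-LM for lateral mesoderm and DE(a)-DE(b) for endoderm, and the other 9 combinations at 48 h cross a day 1 treatment with another day 2 medium. CHIR activates WNT signaling through inhibition of GSK3.

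Somites are blocks of paraxial mesoderm that bud off in pairs from the anterior end of the presomitic mesoderm and later give rise to vertebrae, ribs, skeletal muscle and dermis. FOXC1 and FOXC2 are forkhead factors that act in the presomitic mesoderm and are required for somite formation in the mouse. TCF15 (paraxis) is a basic helix-loop-helix factor needed for somites to become epithelial, and MEOX1 is a homeobox factor of the newly formed somite. PAX3 is a paired-box factor of the presomitic mesoderm and the dermomyotome, the dorsal part of the somite that yields muscle progenitors, and it is also a gene of the neural tube and the neural crest. TBX18 is a T-box factor that keeps the anterior part of each somite distinct, and it is also expressed in the heart, where it marks the proepicardium.

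Library totals ranged from 15522780 to 23439799 estimated counts with a median of 19341117, so that 3 counts in a library, taken as the limit below which a level was not read, correspond to 0.128 to 0.193 counts per 1000000 counts of the library (CPM). Levels are given as CPM of each library, replicate 1 first. The PM and LM libraries carried the markers of their labels, and the DE(b) libraries did so in part. The endoderm factors SOX17 and FOXA2 were also present in DE(a)-LM and DE(a)-PM. The summed level of 4 paraxial genes (TBX6, MSGN1, DLL1 and DLL3) was 1032 to 1639 CPM in the 8 PM libraries and at most 25.5 CPM in the 8 LM libraries. The sum of 5 lateral genes was 593 to 2497 CPM in LM and at most 64.4 CPM in PM, and the sum of 5 endoderm genes was 3459 to 6446 CPM in DE(b), most of it CER1 (3329 to 6006 CPM). The endoderm factors FOXA2 and HHEX were lower in DE(b) after MPS and PPS. FOXA2 was 86 and 125 CPM in DE(a)-DE(b), 52.9 and 79.1 CPM in APS-DE(b), 17.1 and 37.8 CPM in MPS-DE(b), and 2.17 and 11 CPM in PPS-DE(b). HHEX was 62.5 and 84.1 CPM in DE(a)-DE(b) and 6.24 and 11.5 CPM in PPS-DE(b), and SOX17 was 330 and 440 CPM against 113 and 224 CPM. A legend of the study calls the replicates biological, and the labels do not say whether they came from separate cultures, so the p-values measure the spread between these libraries. Replicates 1 and 2 were deposited in separate tables. In bulk RNA, fewer cells of a type and less RNA per cell cannot be told apart.

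FOXC1 (ENSG00000054598) lies on chr6:1609915-1613897, plus strand, and FOXC2 (ENSG00000176692) on chr16:86566829-86569728, plus strand, both in GRCh38 by the GENCODE v44 annotation. TCF15 (ENSG00000125878) lies on chr20:604257-610309, MEOX1 (ENSG00000005102) on chr17:43640389-43661922, PAX3 (ENSG00000135903) on chr2:222199887-222298998 and TBX18 (ENSG00000112837) on chr6:84687351-84764598, all on the minus strand. An antisense RNA, FOXC2-AS1, overlaps 231 bases of the FOXC2 exons. The count of a gene covers all of its exons.

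Promoter sequence from RefSeq (GRCh38.p14) matched 3 of the 6 genes, FOXC1, PAX3 and TBX18. These 3 had their highest levels under different treatments, FOXC1 in PM medium, PAX3 at 24 h in PPS and TBX18 in LM medium, and the 250 bases before each start site are shown for that reason, 5′ to 3′ on the strand of the gene. The day 1 and day 2 media differ in WNT and BMP signals, and capitals mark the letters CTTTG, the core of the TCF/LEF site of WNT signaling, and GGCGCC, a GC-rich element of BMP-responsive SMAD factors.
FOXC1, chr6:1609665-1609914, plus strand: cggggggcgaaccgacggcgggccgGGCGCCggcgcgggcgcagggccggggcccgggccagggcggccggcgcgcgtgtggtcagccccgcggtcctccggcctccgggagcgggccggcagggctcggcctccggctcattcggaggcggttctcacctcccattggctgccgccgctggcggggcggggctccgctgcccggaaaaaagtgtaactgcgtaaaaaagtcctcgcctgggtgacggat
PAX3, chr2:222298999-222299248, minus strand: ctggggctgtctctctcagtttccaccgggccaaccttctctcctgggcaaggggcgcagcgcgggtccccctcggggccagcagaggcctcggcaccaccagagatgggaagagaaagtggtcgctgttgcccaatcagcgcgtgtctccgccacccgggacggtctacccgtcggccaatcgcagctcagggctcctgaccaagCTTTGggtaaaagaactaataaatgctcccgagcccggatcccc
TBX18, chr6:84764599-84764848, minus strand: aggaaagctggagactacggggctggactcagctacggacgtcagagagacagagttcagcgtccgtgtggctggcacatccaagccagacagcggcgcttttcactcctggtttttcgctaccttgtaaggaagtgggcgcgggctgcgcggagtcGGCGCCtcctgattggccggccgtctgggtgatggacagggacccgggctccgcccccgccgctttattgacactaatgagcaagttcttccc
Both strands were searched. GGCGCC was found in the FOXC1 window, at -225 to -220 from the start site, and in the TBX18 window, at -93 to -88, and CTTTG was found in the PAX3 window, at -44 to -40. The T-box core TCACAC was not found in these 3 windows. Among 35116 promoters of the same length, 42.1% held CTTTG, 16.4% held GGCGCC and 9.9% held TCACAC on either strand, and the matches are a description of the letters only. The FOXC1 window had 76.8% G and C, against 64% for PAX3 and 61.6% for TBX18.

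The 6 genes differed widely in level. Per kilobase of exon, FOXC1 reached 79.5 CPM per kb in APS-PM, the highest value of any of the 6 in any condition. PAX3 followed with 7.7 CPM per kb in PPS at 24 h, FOXC2 with 3.94 CPM per kb in DE(a)-PM and TCF15 with 2.92 CPM per kb in DE(a) at 24 h. MEOX1 reached 1.28 CPM per kb in DE(a)-PM and TBX18 0.603 CPM per kb in MPS-LM. FOXC1, FOXC2 and MEOX1 were highest in PM medium, whereas PAX3 and TCF15 were highest at 24 h and TBX18 in LM medium.

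**Figure D1:**
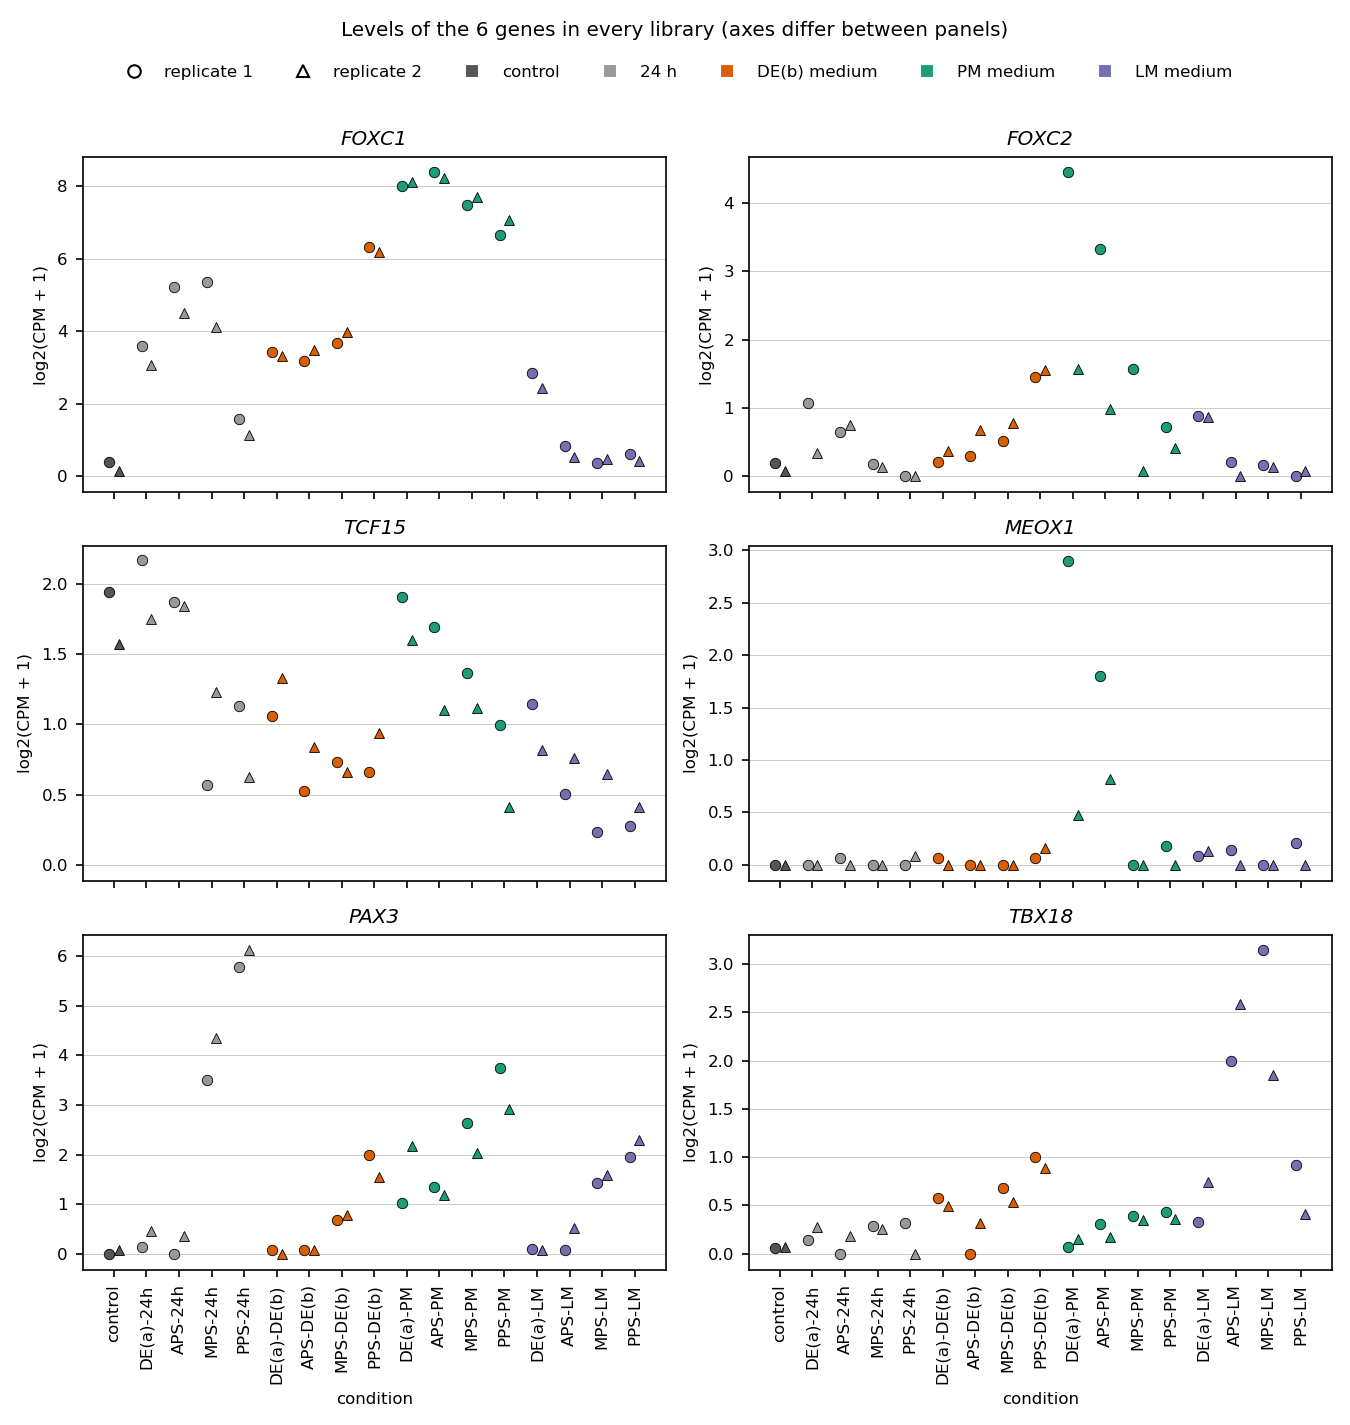
Level of each of the 6 genes in all 34 libraries, as log2(CPM + 1), with the 17 conditions on the horizontal axis, circles for replicate 1, triangles for replicate 2 and colors for the control, 24 h and the 3 day 2 media; the vertical axes differ between panels. FOXC1 stands highest in the 8 PM libraries, PAX3 in MPS and PPS at 24 h, and TBX18 in APS-LM and MPS-LM, whereas FOXC2 and MEOX1 in PM lie far apart between replicates.

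Averaged over the 4 day 1 treatments, several of the genes differed between the media, in comparisons in which a large share of all genes was called at an adjusted p under 0.05 (edgeR quasi-likelihood test, Benjamini-Hochberg adjustment over all genes tested). Between the 24 h populations and the control, 2 of the 6 were called, FOXC1 and PAX3, where 32.5% of all genes were called. PM medium against 24 h called 2 of 6 (48.2% of all genes), LM against 24 h called 4 of 6 (56%) and DE(b) against 24 h called 5 of 6 (51%). PM against LM called 5 of 6 (42%), PM against DE(b) 3 of 6 (43%) and LM against DE(b) 3 of 6 (39.6%). With backgrounds this high, the number of genes called says little about the 6 as a group, and size and direction are given for each gene. Between the day 1 treatments, 3 of 6 were called at 24 h (18.8% of all genes), 4 of 6 in PM (7.47%), 3 of 6 in LM (19.6%) and 2 of 6 in DE(b) (16.6%). MEOX1 had 0 counts in both libraries of 7 conditions, and the averaged comparisons gave no usable estimate for it.

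FOXC1 had the highest level of the 6 in PM medium, and its averaged differences between media were called in all 7 comparisons. In the control its level was 0.316 and 0.106 CPM. At 24 h it was 11 and 7.31 CPM in DE(a), 35.9 and 21.5 CPM in APS, 40.2 and 16.3 CPM in MPS, and 1.98 and 1.2 CPM in PPS. Every 24 h library lay above both control libraries, and the log2 difference averaged over the 4 populations was 5.62 ± 0.49 (SE, adjusted p = 7.4e-09). PPS, the population without activin, stood apart at the low end, and its libraries did not overlap with those of the other 3.

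The day 1 treatments differed in FOXC1 at 24 h (adjusted p = 1.9e-07, where 18.8% of all genes were called). From DE(a) to APS the log2 change was 1.64 ± 0.33 (adjusted p = 0.013, 0.732% of genes called), a call that was lost without DE(a) replicate 1 (1.95), DE(a) replicate 2 (1.37) or APS replicate 1 (1.21). APS and MPS differed by -0.002 ± 0.31 on the log2 scale and were not called (adjusted p = 1, 2.93% of genes called). From MPS to PPS, which lacks activin, FOXC1 fell by 4.21 ± 0.39 on the log2 scale (adjusted p = 8.7e-07, 6.14% of genes called), and this held without any one of the 4 libraries (-3.38 to -4.71).

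PM medium gave the highest FOXC1 levels of the series. They were 258 and 280 CPM after DE(a), 335 and 298 CPM after APS, 179 and 207 CPM after MPS, and 99.4 and 134 CPM after PPS. The lowest of these 8 libraries lay above the highest of the other 26. The average log2 rise over 24 h was 4.23 ± 0.18 (adjusted p = 7.3e-14) and was called within each population, by 4.76 ± 0.36 in DE(a), 3.36 ± 0.34 in APS, 2.66 ± 0.33 in MPS and 6.15 ± 0.41 in PPS. FOXC1 in PM exceeded LM by 7.92 ± 0.23 (adjusted p = 8.5e-17) and DE(b) by 3.56 ± 0.17 (1.7e-13). The shares of all genes called within populations were 23.6%, 25.1%, 22.6% and 20.2%.

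In LM medium FOXC1 fell to levels near the control after 3 of the 4 day 1 treatments. It was 0.773 and 0.429 CPM in APS-LM, 0.291 and 0.38 CPM in MPS-LM and 0.525 and 0.328 CPM in PPS-LM, but 6.22 and 4.36 CPM in DE(a)-LM. Against 24 h the average log2 change was -3.69 ± 0.23 (adjusted p = 1.3e-11). Within populations it was -5.61 ± 0.45 in APS (37.2% of all genes called) and -6.37 ± 0.48 in MPS (31.3%). It was -1.85 ± 0.57 in PPS (25%), a call lost without PPS-24h replicate 1 (-1.43), PPS-LM replicate 1 (-2.21) or PPS-LM replicate 2 (-1.57). In DE(a) it was -0.92 ± 0.35 (32.2%), lost without DE(a)-24h replicate 1 (-0.60), DE(a)-LM replicate 1 (-1.16) or DE(a)-LM replicate 2 (-0.71). Against the control, FOXC1 was higher in DE(a)-LM by 4.52 ± 0.55 (adjusted p = 1.4e-06, 34.9% of all genes called). The corresponding values were 1.47 ± 0.75 in APS-LM (adjusted p = 0.12, 43.4% of genes), 0.71 ± 0.84 in MPS-LM (0.54, 41.6%) and 1.02 ± 0.8 in PPS-LM (0.33, 41.1%), none of which passed.

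DE(b) medium left FOXC1 at moderate levels except after PPS. The values were 9.66 and 8.9 CPM in DE(a)-DE(b), 8.12 and 10.1 CPM in APS-DE(b), 11.9 and 14.8 CPM in MPS-DE(b), and 78.5 and 72.5 CPM in PPS-DE(b). PPS-DE(b) was also the DE(b) condition with the least FOXA2 and HHEX. Both PPS-DE(b) libraries lay above the other 24 libraries outside PM, of which the highest held 40.2 CPM. Averaged over populations, DE(b) exceeded 24 h by 0.67 ± 0.17 on the log2 scale (adjusted p = 0.0025), and the change from DE(b) to LM was -4.36 ± 0.22 (4.6e-13). From 24 h to 48 h in DE(b), FOXC1 rose by 5.59 ± 0.41 on the log2 scale in PPS (adjusted p = 2.5e-09, 20.5% of all genes called) and fell by 1.7 ± 0.33 in APS (adjusted p = 0.00041, 30.6% of genes). In MPS it fell by 1.16 ± 0.32 (27.9% of genes), a call lost without MPS-24h replicate 1 (-0.32) or MPS-DE(b) replicate 1 (-0.99). In DE(a) the difference was -0.05 ± 0.34 (adjusted p = 0.94, 28% of genes).

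**Figure D2:**
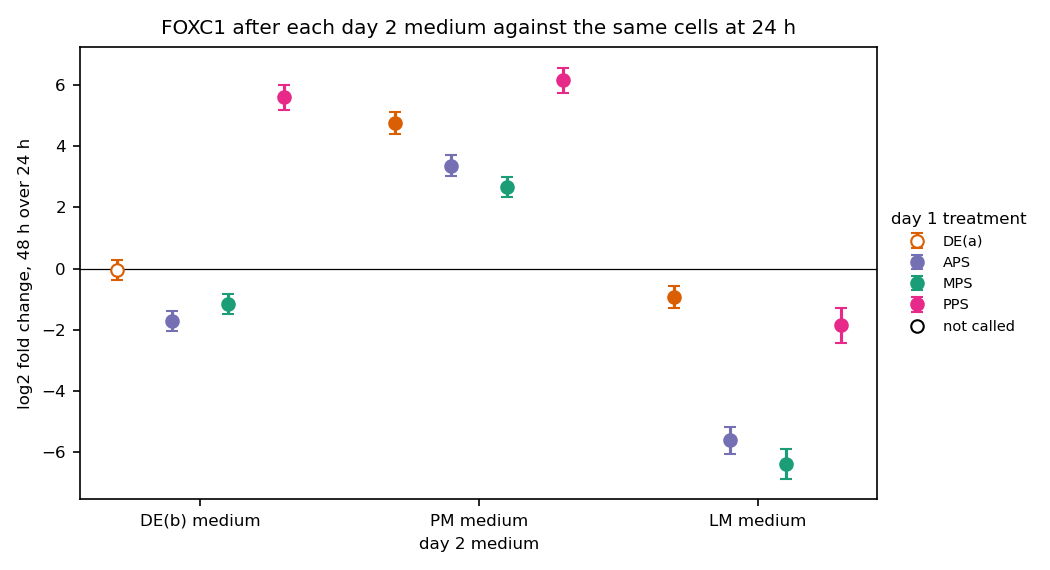
FOXC1 log2 fold change from 24 h to 48 h (vertical axis) for the 3 day 2 media and the 4 day 1 treatments, points with standard errors from the edgeR model over 34 libraries, open where not called. All 4 populations rose in PM medium and fell in LM medium, whereas in DE(b) medium PPS cells rose by 5.59 and APS and MPS cells fell.

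The order of the day 1 treatments in FOXC1 therefore depended on the day 2 medium (test of the interaction over the 12 conditions at 48 h, adjusted p = 2.7e-07, where 13.1% of all genes were called). PPS cells were lowest at 24 h and in PM but highest in DE(b). In DE(b), the day 1 treatments differed (adjusted p = 1.6e-07, 16.6% of all genes called). PPS-DE(b) exceeded the standard DE(a)-DE(b) by 3.07 ± 0.34 on the log2 scale (adjusted p = 1.6e-06, 17.4% of genes called). APS-DE(b) and MPS-DE(b) differed from the standard by -0.01 ± 0.33 and 0.53 ± 0.33 and were not called, where 0.469% and 5.59% of genes were. In PM, the day 1 treatments differed as well (adjusted p = 0.02, 7.47% of all genes called). This call was lost without APS-PM replicate 1 (adjusted p = 0.059), PPS-PM replicate 1 (0.17) or PPS-PM replicate 2 (0.055), and with replicate 1 (0.16) or replicate 2 (0.65) alone in the 4 PM conditions. PPS-PM lay below APS-PM by 1.42 ± 0.31 (adjusted p = 0.0071, 5.25% of genes called), a call lost without APS-PM replicate 1 (-1.34) or PPS-PM replicate 1 (-1.2), and with either replicate alone in PM (-1.76 and -1.13). DE(a)-PM and MPS-PM differed from APS-PM by -0.24 ± 0.3 and -0.71 ± 0.31, not called, where 0.0559% and 0.447% of genes were. In LM, FOXC1 also differed between day 1 treatments (adjusted p = 2.5e-06). DE(a)-LM exceeded MPS-LM by 3.81 ± 0.52 (adjusted p = 2.2e-05, 14.4% of genes called), and APS-LM and PPS-LM were not called against it (3.79% and 5.6% of genes).

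Ordered by mean level, the first 5 conditions for FOXC1 were APS-PM, DE(a)-PM, MPS-PM, PPS-PM and PPS-DE(b), and in each both replicates lay above those of the next. Below them APS and MPS at 24 h overlapped, as did DE(a)-DE(b), DE(a) at 24 h and APS-DE(b), and each of APS-LM, PPS-LM, MPS-LM and the control overlapped with the next.

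FOXC1 was set beside 10 presomitic and segment border genes, among them the clock and Notch genes HES7, LFNG, DLL1 and DLL3. Their summed level was 1239 to 1895 CPM in the PM libraries, 471 and 506 CPM in PPS-DE(b), and 14.1 to 187 CPM in the other 6 DE(b) libraries. Most of the PPS-DE(b) sum was DLL3 (341 and 382 CPM), with TBX6 at 49.3 and 52.8 CPM and HES7 at 4.27 and 3.18 CPM. LFNG in PPS-DE(b), at 14.4 and 12.9 CPM, lay below the control, at 21.2 and 15.6 CPM. In LM the summed level was 36.5 to 55.2 CPM after DE(a), the LM condition with the highest FOXC1, and 10.6 to 20.5 CPM in the other 6 libraries. The 2 levels did not always run together. PPS at 24 h had a summed level of 440 and 311 CPM beside FOXC1 at 1.98 and 1.2 CPM. MPS at 24 h had 320 and 326 CPM and APS 99.8 and 83.7 CPM, with like levels of FOXC1. The control, with a summed level of 31.8 and 23.1 CPM, held less FOXC1 than DE(a)-DE(b), with 14.1 and 18.4 CPM. DE(a)-LM also held SOX17 at 94.8 and 69.6 CPM and FOXA2 at 34.6 and 28.8 CPM. The other LM libraries held at most 5.06 CPM of SOX17 and 2.28 CPM of FOXA2. The sum of 5 lateral genes was 593 and 1121 CPM in DE(a)-LM, against 2048 and 2497 CPM in MPS-LM. The part of presomitic or endoderm cells in the FOXC1 differences was not tested.

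**Figure D3:**
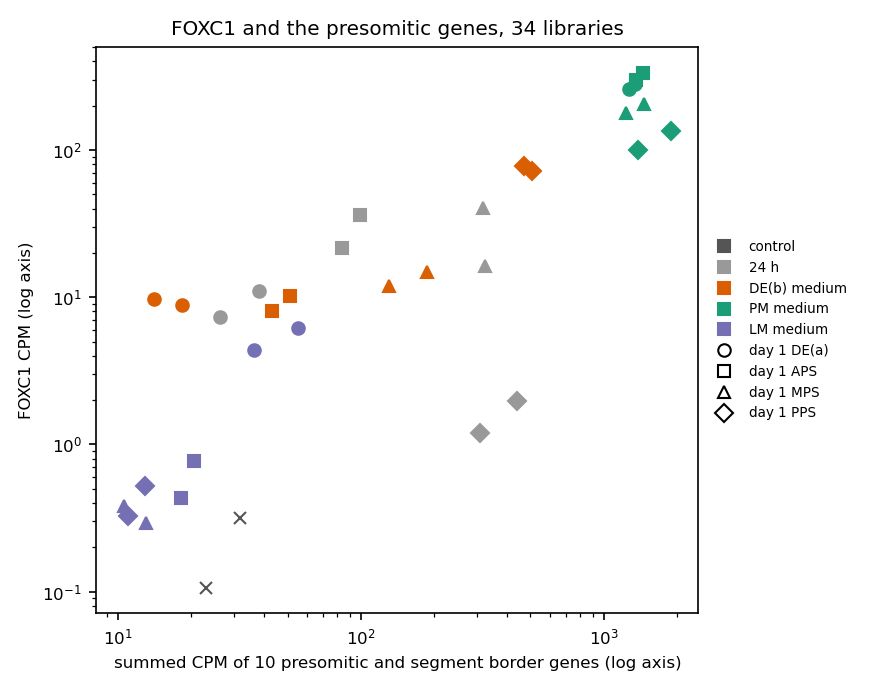
FOXC1 CPM (vertical, log axis) against the summed CPM of 10 presomitic and segment border genes (horizontal, log axis) in 34 libraries, with colors for the control, 24 h and the day 2 media and symbols for the day 1 treatments. The PM libraries are at the upper right, most LM libraries at the lower left, PPS-DE(b) below PM at 72.5 and 78.5 CPM of FOXC1, and PPS at 24 h stands below the other libraries with like presomitic sums.

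FOXC2, the paralog of FOXC1, differed strongly between replicates. In PM medium it was 20.9 and 1.97 CPM after DE(a), 9.02 and 0.981 CPM after APS, 1.96 and 0.0557 CPM after MPS, and 0.648 and 0.333 CPM after PPS. Replicate 1 was the higher in all 4, by 10.6-fold in DE(a)-PM and 9.19-fold in APS-PM. Outside PM the highest level was in PPS-DE(b), with 1.73 and 1.94 CPM, and PPS at 24 h had 0 counts in both libraries. PPS-DE(b) was at least 11.2-fold above the limit of 3 counts per library in PPS at 24 h (adjusted p = 0.0071), a call lost without either PPS-24h library (adjusted p = 0.05 and 0.06).

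FOXC2 in PM exceeded DE(b) by 1.98 ± 0.59 on the log2 scale, averaged over day 1 treatments (adjusted p = 0.0098). With replicate 2 alone in the 4 PM conditions, a choice made after the replicates had been seen to differ, the difference was -0.35 (adjusted p = 0.68). Leaving out single libraries also ended the call, with 1.36 without DE(a)-PM replicate 1, 1.4 without APS-PM replicate 1 and 0.99 without MPS-PM replicate 1. Against LM, the mean of the 8 libraries was 4.48 CPM in PM and 0.258 CPM in LM (adjusted p = 6.6e-05, and 0.056 with PM replicate 2 alone). Against 24 h, with a mean of 0.355 CPM, the adjusted p was 0.00016, and 0.068 with PM replicate 2 alone. DE(b) against 24 h was called at an adjusted p of 0.048, which was lost on leaving out any of 14 of the 16 libraries (up to 0.11). LM against DE(b) was called at 0.027 and lost without any of 6 libraries (up to 0.073). The rise of FOXC2 in PM thus rested on replicate 1.

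FOXC2 differed between day 1 treatments in PM (adjusted p = 0.044), a call lost without DE(a)-PM replicate 1 (0.23), MPS-PM replicate 2 (0.052), PPS-PM replicate 1 (0.11) or PPS-PM replicate 2 (0.18) with replicate 2 alone in PM (0.3) and with only the libraries compared in the fit (0.44). The interaction passed at 0.042 and was lost on leaving out any of 17 of the 24 libraries (up to 0.12) and with only the libraries compared (0.091).

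MEOX1 was detected above 3 counts in 2 conditions, DE(a)-PM and APS-PM. It was 6.43 and 0.393 CPM in DE(a)-PM and 2.49 and 0.768 CPM in APS-PM, from 137 and 7 counts and from 52.1 and 18 counts. All other libraries held at most 3 counts, and MPS-PM held 0 in both. The mean in DE(a)-PM was at least 21.6-fold above the limit of 3 counts per library in DE(a) at 24 h, where both libraries held 0 (adjusted p = 0.0095), and the call was lost without either DE(a)-24h library (adjusted p = 0.066 and 0.062) or DE(a)-PM replicate 1 (0.11). That bound rested on replicate 1, since replicate 2 of DE(a)-PM alone was at least 2.48-fold above the limit. APS-PM held 70 counts against 1 in APS at 24 h, a ratio of 67.8 with a 95% exact counting interval of 11.8 to 2718. That interval covers counting error only, and the call (adjusted p = 0.032) was lost without either APS-24h library, without APS-PM replicate 1 and with DESeq2 (0.14). The 2 day 1 treatments that gave a level in PM, DE(a) and APS, lacked BMP4 and had less CHIR than MPS and PPS. BMP4 and the CHIR dose cannot be told apart here. The day 1 treatments differed in MEOX1 in PM (adjusted p = 0.032). This call was lost with DESeq2 (0.28), with only the libraries compared (0.24) and without DE(a)-PM replicate 1 (0.084), MPS-PM replicate 1 (0.083), MPS-PM replicate 2 (0.086) or PPS-PM replicate 2 (0.083), and with either replicate alone in PM (0.11 and 0.51).

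In DE(a)-PM and APS-PM, few other genes exceeded replicate 2 in replicate 1 by as large a ratio as FOXC2 and MEOX1. In DE(a)-PM, 0.107% of 15853 genes with more than 3 counts in both libraries had a replicate 1 to replicate 2 ratio as high as FOXC2, and 0.0694% one as high as MEOX1, whose ratio was 16.4. In APS-PM these shares were 0.0943% and 0.968% of 15915 genes. The median ratio of all genes was 1.01 in DE(a)-PM and 0.999 in APS-PM. Genes with as wide a gap in the other direction were not counted, and the genes were not matched for count level. In PPS-PM the FOXC2 ratio was 1.95, and 6.28% of genes had one as high. FOXC1 did not share the gap, with ratios of 0.921, 1.12, 0.868 and 0.74 in the 4 PM conditions, and PAX3 in DE(a)-PM went the other way, at 1.04 and 3.53 CPM.

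The other presomitic and somite genes were mixed between the replicates of these 2 conditions. EYA1, a transcriptional coactivator of muscle progenitors, had 7.83 and 1.97 CPM in DE(a)-PM and 2.27 and 1.19 CPM in APS-PM. RIPPLY2, a factor of the segment border that was named after its values were seen, had 8.64 and 0.168 CPM in DE(a)-PM and 3.16 and 0.0853 CPM in APS-PM. DMRT2, a somite gene, went the other way in DE(a)-PM, at 0.893 and 2.13 CPM, and was 2.35 and 2.26 CPM in APS-PM. Among the later somite genes with more than 3 counts in at least 1 library, 2 of 6 were higher in replicate 1 in DE(a)-PM and 5 of 5 in APS-PM, against 51.8% and 49.1% of all genes. Among the presomitic and segment border genes the counts were 6 of 9 and 6 of 8. The Notch ligand DLL1 was 313 and 208 CPM in DE(a)-PM and 297 and 167 CPM in APS-PM. HES7 and LFNG had ratios between 1.2 and 1.44 in these 2 conditions, whereas TBX6, MSGN1 and DLL3 had ratios between 0.728 and 1.22. ALDH1A2, a gene of the presomitic mesoderm that was on the epicardial list, went the other way. It was 207 and 508 CPM in DE(a)-PM and 327 and 495 CPM in APS-PM.

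Genes of other cell states also differed between these replicates. The primitive streak genes TBXT, MIXL1 and EVX1 were lower in replicate 1 in all 4 PM conditions, and their sum with EOMES was 418 and 938 CPM in DE(a)-PM, 365 and 826 CPM in APS-PM, 353 and 775 CPM in MPS-PM, and 619 and 882 CPM in PPS-PM. EOMES, a streak gene that also acts in endoderm, went the other way in 3 of them, at 24.4 and 2.64 CPM in DE(a)-PM, 6.93 and 1.32 CPM in APS-PM and 1.51 and 0.446 CPM in MPS-PM. The endoderm factors FOXA2 and SOX17 moved with FOXC2 and MEOX1 in DE(a)-PM, at 33 and 3.37 CPM and at 72.7 and 3.75 CPM, and SOX17 was 2.44 and 0.213 CPM in APS-PM. The sum of 5 endoderm genes, most of it CXCR4, was 263 and 251 CPM in DE(a)-PM and 236 and 267 CPM in APS-PM. The sum of 6 endothelial genes was 101 and 40.5 CPM in DE(a)-PM, 38.2 and 20.7 CPM in APS-PM, 44.4 and 51.5 CPM in MPS-PM, and 81.3 and 115 CPM in PPS-PM. The part of these differences in the levels of FOXC2 and MEOX1 was not tested.

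**Figure D4:**
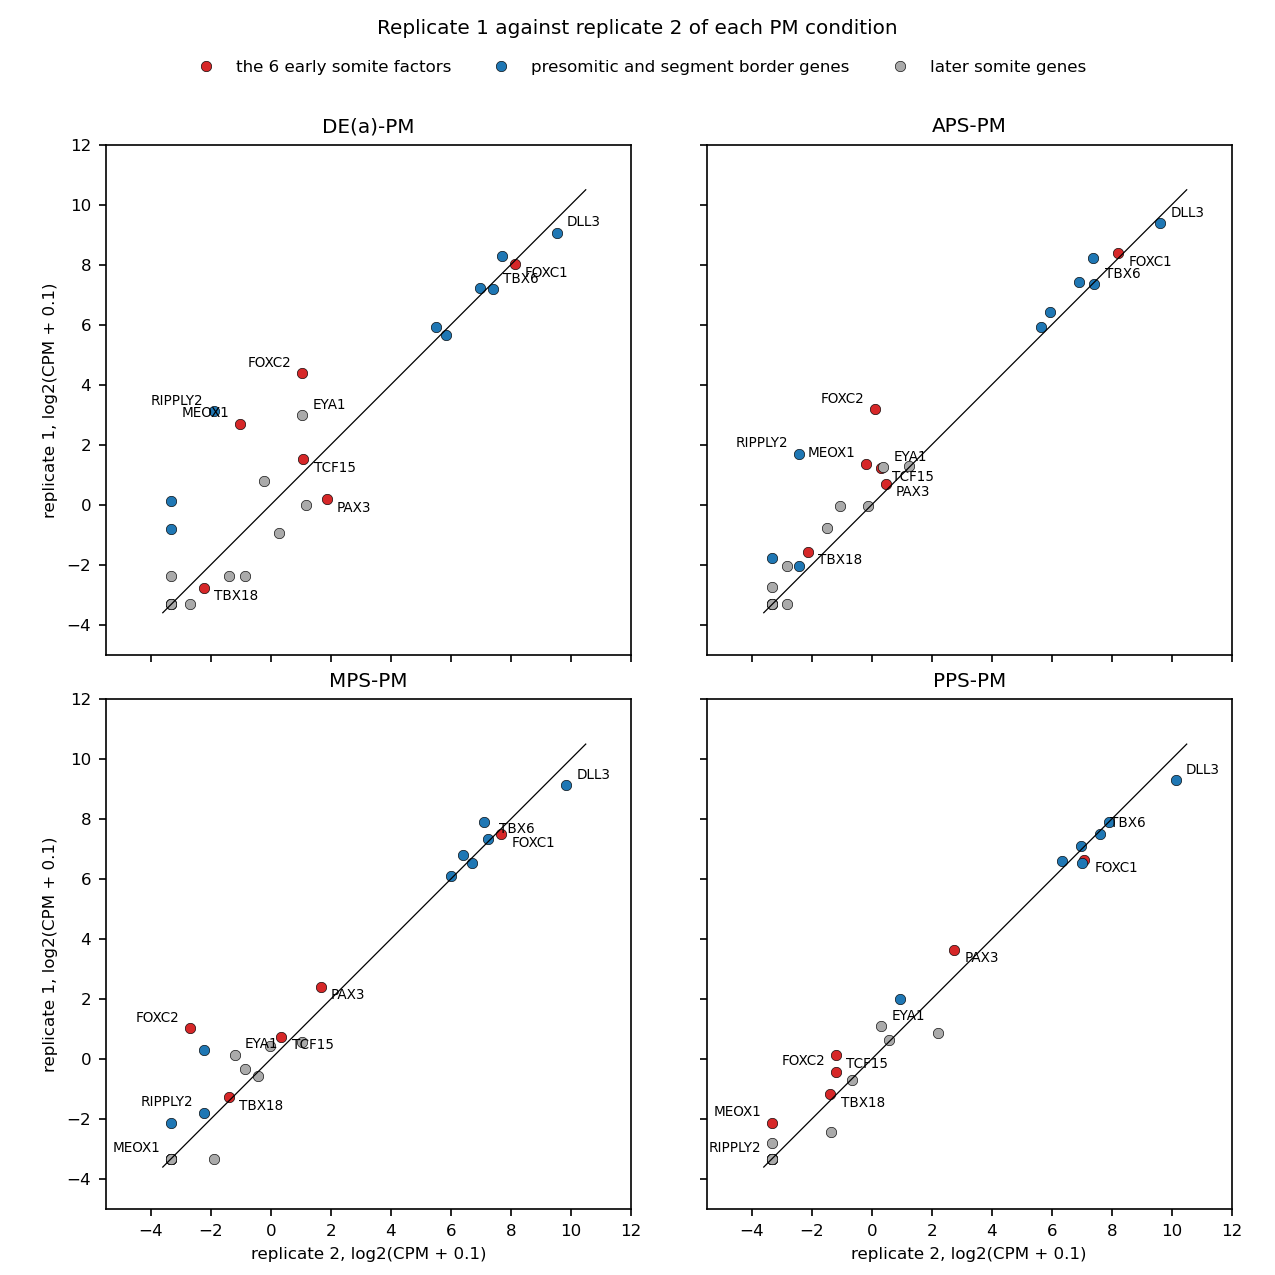
Level of the 6 early somite factors, 10 presomitic and segment border genes and 11 later somite genes in replicate 1 (vertical) against replicate 2 (horizontal) of the 4 PM conditions, as log2(CPM + 0.1), with a line of equal levels. In DE(a)-PM and APS-PM, FOXC2, MEOX1, RIPPLY2 and EYA1 lie above the line, whereas FOXC1, TBX6 and DLL3 lie near it.

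TCF15, which is also transcribed in pluripotent cells, was present at a low level in the control and was not called higher than the control or 24 h in any condition. It was 2.85 and 1.97 CPM in the control, 3.5 and 2.36 CPM in DE(a) and 2.66 and 2.58 CPM in APS at 24 h. In MPS at 24 h it was 0.485 and 1.35 CPM, and in PPS 1.19 and 0.542 CPM. The populations that received BMP4 with the higher dose of CHIR thus did not overlap with the other 2. BMP4 and the CHIR dose cannot be told apart here. The test across the 4 populations gave an adjusted p of 0.049, which was lost without DE(a) replicate 1 (0.14), DE(a) replicate 2 (0.061), APS replicate 1 (0.076), APS replicate 2 (0.073), MPS replicate 1 (0.12) or PPS replicate 2 (0.17), without the filter on low counts (0.1) and with only the libraries compared (0.13).

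On day 2, TCF15 fell in LM and in DE(b). Against 24 h the average log2 change was -1.7 ± 0.32 in LM (adjusted p = 0.00012) and -1.03 ± 0.31 in DE(b) (adjusted p = 0.0086). In PM it was -0.26 ± 0.3 and was not called (adjusted p = 0.51). The 8 libraries ranged from 0.174 to 1.21 CPM in LM, with a median of 0.493 CPM, and from 0.333 to 2.75 CPM in PM, with a median of 1.37 CPM, so that the ranges overlapped. PM exceeded LM by 1.44 ± 0.32 (adjusted p = 0.00092), a difference of 0.95 with PM replicate 2 alone (adjusted p = 0.061). Within PM, the mean was 2.39 CPM after DE(a), 1.69 CPM after APS, 1.38 CPM after MPS and 0.664 CPM after PPS, differences that did not pass the test (adjusted p = 0.3). In the order of levels over the 17 conditions, no condition had both replicates above those of the next.

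PAX3 followed another course and was highest on day 1. At 24 h it was 53.8 and 68.5 CPM in PPS and 10.3 and 19.5 CPM in MPS, the 2 populations that received BMP4 with the higher dose of CHIR. It was at most 0.376 CPM in DE(a) and APS and at most 0.0532 CPM in the control. MPS exceeded APS by 6.7 ± 0.83 on the log2 scale (adjusted p = 4.0e-05), a difference that leaving out 1 of these libraries moved between 5.75 and 11.2, since APS replicate 1 held 0 counts and replicate 2 held 6. The mean level in PPS was 4.1-fold that in MPS, but PAX3 was not called between these 2 populations (6.14% of genes called). The day 1 treatments differed at 24 h (adjusted p = 3.6e-08).

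From 24 h to 48 h, PAX3 fell in the populations in which it had been high. After PPS it was 12.4 and 6.57 CPM in PM, 2.85 and 3.89 CPM in LM, and 2.98 and 1.94 CPM in DE(b). The log2 changes were -2.72 ± 0.61 in PM (adjusted p = 0.0025), -4.13 ± 0.65 in LM (5.3e-05) and -4.58 ± 0.67 in DE(b) (3.0e-05), and the call in PM was lost without PPS-PM replicate 2 (-2.35, adjusted p = 0.054). After MPS it was 5.24 and 3.07 CPM in PM, 1.7 and 2 CPM in LM, and 0.602 and 0.709 CPM in DE(b). The log2 changes after MPS were -1.96 ± 0.6, -3.02 ± 0.64 and -4.56 ± 0.71, of which the first was lost without MPS-24h replicate 2 (-1.43), MPS-PM replicate 1 (-2.36) or MPS-PM replicate 2 (-1.64).

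In the other 2 populations PAX3 rose in PM from little or no level. It was 1.04 and 3.53 CPM in DE(a)-PM and 1.53 and 1.28 CPM in APS-PM, and the log2 changes against 24 h were 3.1 ± 0.78 (adjusted p = 0.0056) and 3.18 ± 0.84 (0.0072). The first was lost without DE(a)-24h replicate 1 (2.46) or DE(a)-PM replicate 2 (1.95), and the second without APS-24h replicate 1 (2.25). All 4 PM conditions thus held PAX3, at 1.04 to 12.4 CPM, whereas DE(a) and APS cells held at most 0.429 CPM in LM and DE(b).

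By mean level, PAX3 was highest after PPS and second after MPS at 24 h and in each of the 3 media, whereas DE(a) and APS, at most 0.429 CPM outside PM, changed places. PAX3 was not called between PPS and MPS at 24 h or in LM (6.14% and 5.6% of genes called). In PM, MPS (5.24 and 3.07 CPM) overlapped with DE(a) (1.04 and 3.53 CPM). The day 1 treatments differed in DE(b) (adjusted p = 0.00011), in LM (0.00011) and in PM (0.018). The call in PM was lost without APS-PM replicate 1 (0.052), APS-PM replicate 2 (0.064) or PPS-PM replicate 1 (0.17), with replicate 2 alone in PM (0.51) and with only the libraries compared (0.17). In LM, where the 2 replicates of DE(a)-LM held 1 count each, MPS-LM stood at 34-fold DE(a)-LM (95% exact counting interval 9.07 to 286). PPS-DE(b) held 94 counts against 1 in DE(a)-DE(b), a ratio of 94.5 (95% exact counting interval 16.6 to 3773), and MPS-DE(b) 21 counts, a ratio of 24.5 (3.94 to 1014). The interaction of day 1 and day 2 treatment was not called for PAX3 (adjusted p = 0.081) but passed with DESeq2 (0.0027).

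PAX3 averages over the 4 populations mix these 2 courses. The means of the 8 libraries were 19.1 CPM at 24 h, 4.33 CPM in PM, 1.38 CPM in LM and 0.799 CPM in DE(b). PM exceeded LM (adjusted p = 1.2e-05) and DE(b) (2.6e-07) and was not called against 24 h (0.38). LM and DE(b) lay below 24 h (adjusted p = 0.00057 and 1.9e-05), and both calls were lost without APS-24h replicate 2 (0.97 and 1), which leaves APS at 24 h with 0 counts. The call against the control was lost in the same way. PAX3 is also a gene of the neural crest and the neural tube, and markers of both were read beside it. In PPS at 24 h, FOXD3 was at or under 3 counts, SOX10 was 1.19 and 1.63 CPM and TFAP2B was 0.296 and 0.181 CPM. The summed level of 6 neural crest genes was 76.5 and 56.6 CPM in PPS and 280 and 222 CPM in MPS, the populations with PAX3. It was 77.8 and 80.9 CPM in DE(a) and 191 and 181 CPM in APS, where PAX3 was at most 0.376 CPM. The sum of 5 neural plate genes was 2.28 and 2.41 CPM in PPS, with SOX1 and PAX6 at or under 3 counts, and 15.3 to 116 CPM in the other 24 h populations. TFAP2A, read here as an amnion gene, ran with PAX3 at 24 h. It was 37.4 and 72.5 CPM in PPS, 4.43 and 10.47 CPM in MPS, and at most 1.2 CPM in DE(a) and APS. In LM medium the genes did not run together. TFAP2A was 55.1 and 88.2 CPM in DE(a)-LM, where PAX3 held 1 count in each library. The part of neural crest or amnion cells in the PAX3 level was not tested. CCDC140, a gene on the strand opposite to PAX3 with no exon in common, held at most 35 counts in a library.

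TBX18 was the 1 gene of the 6 called higher in LM medium than at 24 h. It was 3 and 4.99 CPM in APS-LM and 7.84 and 2.61 CPM in MPS-LM, against 0.255 and 0.668 CPM in DE(a)-LM and 0.893 and 0.328 CPM in PPS-LM. The highest level elsewhere was 1.01 CPM, in PPS-DE(b), so that both libraries of APS-LM and MPS-LM lay above all others. Averaged over day 1 treatments, LM exceeded 24 h (adjusted p = 6.2e-06), PM (3.2e-05) and DE(b) (0.0023), and the means of the 8 libraries were 2.57 CPM in LM, 0.14 CPM at 24 h, 0.219 CPM in PM and 0.507 CPM in DE(b).

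The rise from 24 h was called in APS (151 counts against 3, a ratio of 56.9 with a 95% exact counting interval of 19.1 to 279, adjusted p = 0.00036) and in MPS (4.58 ± 1.01 on the log2 scale, adjusted p = 0.0013). The day 1 treatments differed in LM (adjusted p = 0.0093). DE(a)-LM lay below MPS-LM by 3.53 ± 0.95 (adjusted p = 0.013), lost without DE(a)-LM replicate 1 (-3.01) or MPS-LM replicate 1 (-2.6). Between PPS-LM and MPS-LM, TBX18 was not called (5.6% of genes called). DE(b) medium also exceeded 24 h (adjusted p = 0.02), a call lost without APS-DE(b) replicate 2 (0.9) and with only the libraries compared (0.066).

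TBX18 also marks the proepicardium, and 5 genes of the epicardium and proepicardium were read beside it. WT1 was at most 0.477 CPM in the LM libraries and UPK3B at most 1.13 CPM. TCF21 was 6.02 and 3.09 CPM in MPS-LM and 2.13 and 2.74 CPM in APS-LM, but also 5.57 and 2.63 CPM in PPS-LM, where TBX18 was below 1 CPM. The summed level of the 5 was 7.54 to 42.9 CPM in LM, highest in PPS-LM. It was higher in PM, at 43.4 to 514 CPM, of which ALDH1A2, the enzyme of retinoic acid synthesis that is also a gene of the presomitic mesoderm, made up 41.7 to 508 CPM. The study found some amnion-like cells under its LM protocol. The sum of 5 amnion genes was 228 and 293 CPM in DE(a)-LM and 333 and 459 CPM in PPS-LM, where TBX18 was low. It was 90.9 and 105 CPM in APS-LM and 78.8 and 127 CPM in MPS-LM. The part of proepicardial or amnion cells in the TBX18 level was not tested.

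Of 9 presomitic and segment border genes with 1 identifier each, 7 were called in PM against 24 h, where 48.2% of all genes were, 5 higher and 2 lower, with a median log2 change of 3 over the list and -0.02 over all genes tested. The levels of DLL3, TBX6 and LFNG rose by 4.58 ± 0.19, 3 ± 0.13 and 3.55 ± 0.18, whereas MESP1 and MESP2, the factors of the segment border, were lower (adjusted p = 1.4e-10 and 2.5e-06), with conditions at or under 3 counts in PM. In LM against 24 h, 7 of the 9 were lower and 0 higher (56% of all genes called), with HES7 and RIPPLY1 not called and a median of -1.99. DLL1 has 2 identifiers in the tables and was left out of these counts.

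The genes of later somites and their derivatives were low. Of 11 genes, 8 were tested, and 4 were called in PM against 24 h, a share near the 48.2% of all genes. Of the 4, DMRT2 was higher (2.03 ± 0.44 on the log2 scale) and EYA1 (-1.32 ± 0.27), PAX9 and SIM1 were lower. The median log2 change of the 8 was -0.51. The sclerotome gene PAX1, the somite gene UNCX, the homeobox gene MEOX2 and the muscle regulator MYF5 were at or under 3 counts in both libraries of all 4 PM conditions. The summed level of the 11 was 4.43 to 11.1 CPM in PM and 4.41 to 17 CPM at 24 h.

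Among 7 nearest relatives of the 6 genes with 1 identifier, 6 were called in PM against LM, where 42% of all genes were, 2 higher and 4 lower. TBX15, a T-box gene of the same subfamily as TBX18, went the other way, at 0.428 to 5.33 CPM in PM and at most 0.315 CPM in LM (adjusted p = 8.7e-08). FOXF2 and FOXD1, forkhead genes like FOXC1, were higher in LM than in PM (adjusted p = 5.6e-11 and 0.027), the direction opposite to FOXC1. FOXF2 was 6.73 to 17.8 CPM in LM and at most 1.08 CPM in PM. MEOX2 held 0 counts in the 8 PM libraries, where MEOX1 was detected after DE(a) and APS.

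The genes whose pattern over the 17 conditions was most like that of FOXC1, by Pearson's r of mean log2(CPM + 1) among 12263 genes that reached 10 CPM in a condition, were PTPRG (0.953), KCNJ5 (0.944) and ANP32A (0.935). For FOXC2 they were ADAMTS15 (0.9), KCNK17 (0.884) and TPCN1 (0.861), and for PAX3 LRP4 (0.927), FNDC3A (0.92) and NTF3 (0.909). LRP4, FNDC3A and NTF3 were highest in PPS at 24 h, as PAX3 was, and the 3 genes most like FOXC2 were highest in DE(a)-PM. Among the 6 genes themselves, r was 0.886 between FOXC2 and MEOX1, 0.767 between FOXC1 and FOXC2, 0.126 between FOXC1 and PAX3 and -0.429 between FOXC1 and TBX18. For FOXC2 and MEOX1 it was 0.741 with a pseudocount of 0.1, and MEOX1 was above 3 counts only in DE(a)-PM and APS-PM. The 17 points share a cell line, the 4 day 1 treatments and the 3 media, and the coefficients are a description. With a pseudocount of 0.1 in place of 1, r fell from 0.884 to 0.756 for KCNK17, from 0.9 to 0.813 for ADAMTS15 and from 0.909 to 0.823 for NTF3, which then ranked 18, 3 and 28. TCF15, MEOX1 and TBX18 did not reach 10 CPM in any condition and were not ranked in this way.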

How the data were processed

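Poly(A) RNA of 34 libraries was sequenced with a stranded kit. The authors quantified reads with Salmon 1.10.2 on GRCh38 with bias correction and summed transcripts to genes in R 4.4.2, and the deposited values are these estimated counts, not scaled by length or depth. The 6 genes and the gene lists were chosen with earlier results of these data known. All 34 columns matched a sample by name (0 unmatched).

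Estimated counts were rounded. Tests used the edgeR 4.0.16 package under R 4.3.3, with TMM scaling, filterByExpr by condition, a mean for each condition fitted over 34 libraries, quasi-likelihood tests and Benjamini-Hochberg adjustment over 17895 genes (common dispersion 0.0611, residual degrees of freedom 17). CPM were taken over library totals. Alternatives were RLE scaling, tests without the filter, a block for the replicate number, fits to the compared libraries alone, DESeq2 1.42.0, and leaving out each library in turn with the dispersion trend of the full fit. The PM conditions with 1 replicate alone were added after the data were seen. Of each list, at most 4 genes were to be named, by mean level in the conditions described, and for likeness the 3 nearest genes. RIPPLY2, DMRT2, MESP1, MESP2, PAX1, UNCX, MYF5, MEOX2, HES7, RIPPLY1, PAX9, SIM1 and the single markers of other cell types were named after their values were seen. A gene of the later somite list is not reported here. Symbols under several identifiers (DLL1, GATA4, POU5F1, SOX7, TBX22, UPK3B) had their levels summed and were left out of counts of calls. Simulated counts for 17895 genes were tested in the same way. For PM against 24 h, 83.2% of genes with a change of 2 log2 units were recovered and 74.3% at 1 unit, and for APS-PM against APS at 24 h 64.2% and 40%. Intervals and limits from counts cover counting error only. Figures were drawn with Python 3.11.15 and matplotlib 3.10.9.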

Additional observations from a re-analysis of the deposited data

Results flagged for a closer look

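Among the 6 genes, 2 passed the test of whether the effect of the day 1 treatment differed between the day 2 media, where 13.1% of all genes did. For FOXC1 the adjusted p was 2.67e-07 (edgeR), with PPS highest of the 4 populations in DE(b), at 78.5 and 72.5 CPM, and lowest in PM, at 99.4 and 134 CPM. For FOXC2 it was 0.0423, with PPS highest in DE(b), at 1.73 and 1.94 CPM, and DE(a) highest in PM, at 20.9 and 1.97 CPM. The call for FOXC2 was lost on leaving out any of 17 of the 24 libraries and with only the libraries compared (0.0912). With 2 libraries per condition, no single library could be assessed as an outlier of its group.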

How the results depend on the processing

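RLE factors changed no call of the 6 genes in any comparison reported. The replicate numbers were not used as pairs in the main fit. The correlation of replicate differences between conditions had a median of 0.162 (-0.196 to 0.569) and was over 0.1 for 96 of 136 pairs of conditions. For 34 of 34 libraries the best match in another condition had the same replicate number. The 2 libraries of a condition mirror each other in this measure, so these are 17 separate outcomes, a hint from the data only. Whether the numbers mark a shared batch was not tested. A replicate block left the number of the 6 genes called as it was in all 12 main comparisons (2, 2, 4, 5, 5, 3, 3, 3, 4, 3, 2 and 2, in the order of the text) and raised the calls over all genes, for example from 8629 to 9361 for PM against 24 h and from 1337 to 1780 for day 1 in PM. With only the libraries compared, 1 of 6 instead of 4 was called for day 1 in PM, with 272 of all genes, and day 1 at 24 h called 1905 genes. Without the filter, the interaction called 4 of 6 and 4091 genes, and day 1 in PM 2528 genes. DESeq2 called 4 of 6 and 3650 genes for the interaction and 2044 genes for day 1 in PM. Leaving out libraries, or 1 replicate of all PM conditions, gave 1 to 2 of 6 for 24 h against control, 1 to 3 for PM against 24 h, 3 to 5 for DE(b) against 24 h and for PM against LM, 0 to 4 for day 1 in PM (471 to 1370 genes), 1691 to 2971 genes for day 1 in DE(b), and 1 to 3 of 6 for the interaction. The sign changed on leaving out libraries for FOXC2 in LM against 24 h (-1.06 to 0.20) and in PM against DE(b) (-0.35 to 2.76), and for TCF15 in PM against 24 h (-0.75 to 0.084). The cause was not tested. The 7 averaged FOXC1 differences kept direction and call in all of these. CPM by effective library size was 0.952 to 1.06 times the values given, and a pseudocount of 0.1 lowered the likeness of KCNK17 (to 0.756) and ADAMTS15 (to 0.813) to FOXC2 and of NTF3 to PAX3 (to 0.823). Levels under about 0.2 CPM are limited by depth.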
